A study of Mus musculus with 24 samples.

Results

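The genes described here drive or accompany cell division in the crypts of the intestine. A list of 44 of them was used, from DNA replication factors to mitotic motors, and each gene was read through the probe set that carries its symbol alone, taking the brightest where a gene had several. 38 of the 44 had such a probe set, among 18820 genes measured in the same way. Ccnb1 had no probe set with its symbol, and Ccne2, Kif20a, Tyms, Foxm1 and Nusap1 were read only together with a neighbouring or related gene. The 38 measured members comprised 4 cyclins and transcription factors of the G1/S transition, 10 genes of replication licensing and the replication fork, 3 genes of nucleotide supply and uracil repair, 11 mitotic kinases, cyclins, checkpoint genes and their regulators, and 10 genes of the spindle, kinetochore, cytokinesis and chromosome structure.

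Terminal ileum was taken from 24 male C57BL/6OlaHsd mice aged 8 weeks, 4 in each of 6 groups, and each mouse gave 1 Affymetrix Mouse Gene 1.1 ST array. Conventional (SPF) and germ-free mice were gavaged for 5 days with water, with 10 mg per day of a short-chain β2→1-fructan, or with the same dose of a long-chain one. Fructans of this type are chains of fructose from chicory that mammalian enzymes do not digest, and all mice ate a diet with 10% fat for at least 2 weeks before. Conventional mice were bought from a supplier whereas germ-free mice came from a university breeding colony, so that colonization and origin cannot be told apart. For germ-free mice, the short-chain fructan was passed through a 0.2 micron filter and the long-chain fructan was irradiated with 25 kGy, which degraded part of its longer oligomers. A piece of whole ileum holds epithelium, immune cells, muscle and attached tissue, and in such bulk samples fewer cells of a type and less RNA per cell cannot be told apart. Fabp6 and Slc10a2, the bile acid binding protein and transporter of the ileum, had group means from 12.47 to 12.64 and from 10.89 to 11.16 on the log2 scale. Values are log2 expression estimates, on which a difference of 1 equals a doubling, and only differences between mice within a gene are compared. Each array is 1 mouse, and the p-values set differences between groups against the spread between mice within groups.

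Epithelial cells of the small intestine are born in the crypts, where stem cells and their transit-amplifying daughters divide before the progeny differentiate and move up the villus. In each cycle, loading factors place the MCM helicase on the replication origins. Cyclin E, cyclin A and E2F factors open S phase, and cyclin B with Cdk1, Plk1 and the Aurora kinases drives mitosis. Many of these genes are transcribed only in dividing cells, so their level in tissue follows how many cells divide and in which phase they are. Germinal centres of Peyer's patches, which lie in the ileum, contain dividing B cells that express these genes as well.

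Within groups the members had a median SD between mice of 0.17, against 0.16 over all genes. Arrays of the same group correlated with r between 0.9904 and 0.9954 across genes.

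Averaged over the members, after each gene was centred on its mean, the germ-free mice lay higher than the conventional mice. On water the 4 conventional mice had averages of -0.17, -0.18, -0.13 and -0.06 and the germ-free mice 0.12, -0.08, 0.23 and 0.08. After the short-chain fructan the averages were 0.02, -0.10, -0.21 and -0.09 in conventional mice and 0.04, 0.07, -0.02 and 0.11 in germ-free mice. After the long-chain fructan they were -0.07, -0.32, 0.09 and -0.08 in conventional mice and 0.13, 0.21, 0.21 and 0.19 in germ-free mice. 10 of 12 conventional mice were below 0 and 10 of 12 germ-free mice above it. The groups given water and those given the short-chain fructan overlapped, through 1 germ-free mouse each, and those given the long-chain fructan did not. The average of replicate 2 of the conventional long-chain group was the lowest of all 24 mice, and the spread of that group (SD 0.17) was the widest of the 6.

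**Figure D1:**
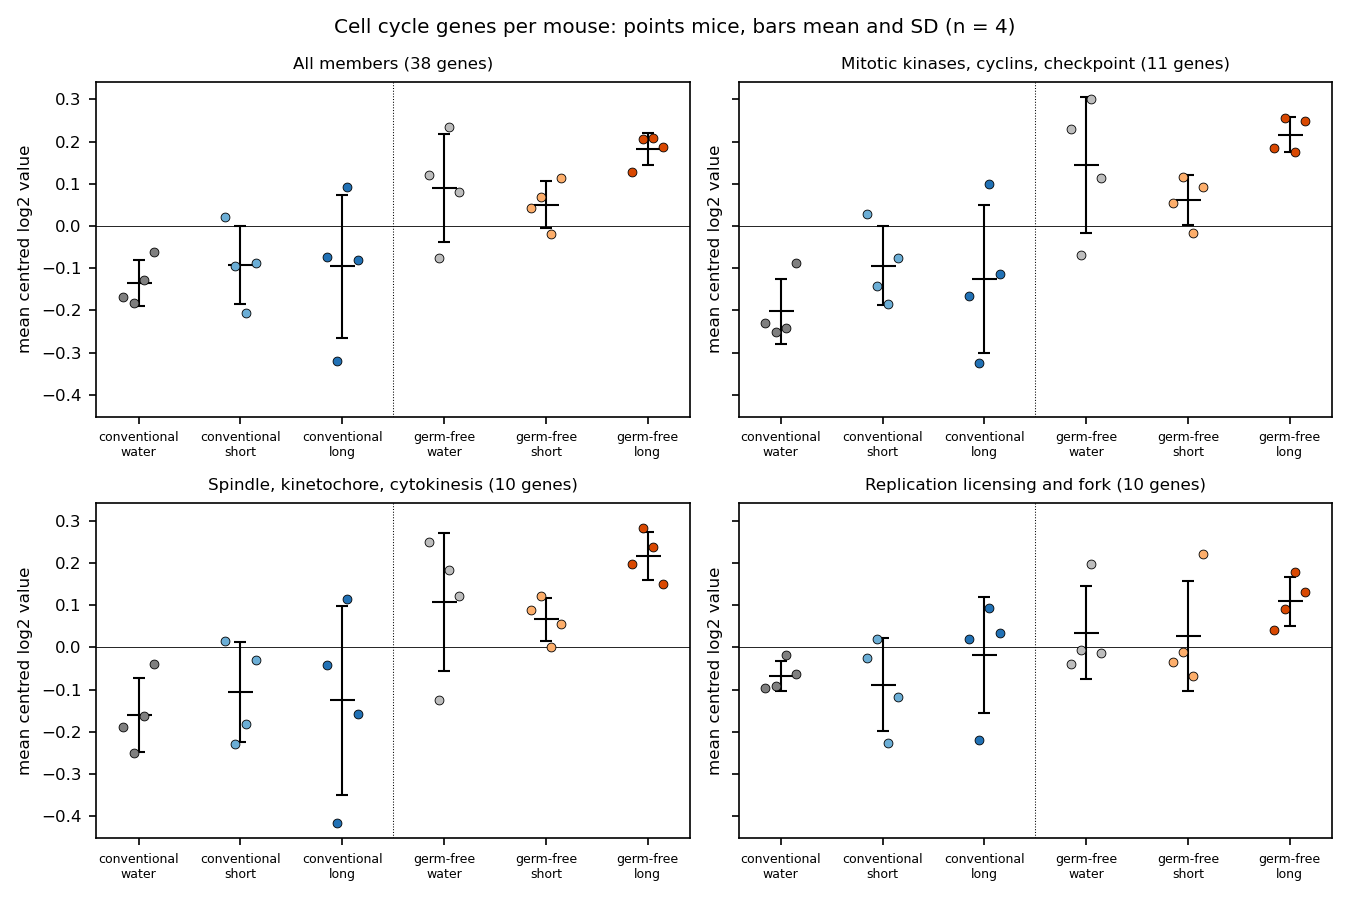
Mean of the centred log2 values (vertical axis, log2 units) of all 38 members, of 11 mitotic kinases, cyclins and checkpoint genes, of 10 spindle and cytokinesis genes and of 10 replication genes in each of the 24 mice, with points for mice and bars for the group mean and SD (n = 4). In each panel the means of the 3 germ-free groups lie above those of the 3 conventional groups, single mice of both kinds overlap, and the conventional mouse at -0.32 in the first panel is replicate 2 of the long-chain group.

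Germ-free mice were compared with conventional mice in 3 separate sets of 8 mice, on water, after the short-chain fructan and after the long-chain fructan. A gene was called when its unadjusted p in limma was below 0.01 and its change exceeded 1.3-fold. On water 6 of the 38 members were called higher in germ-free mice (2.77% of all 18820 genes were called higher) and 0 lower (5.96% of all genes). After the short-chain fructan 2 members were called higher (4.29% of all genes) and 0 lower (4.47%). After the long-chain fructan 11 members were called higher (3.43%) and 0 lower (6.26%). At an adjusted p below 0.05 without a limit on the fold, 10, 2 and 16 members were higher, where the shares of all genes were 5.6%, 8.84% and 7.27%. The 4 germ-free mice all lay above the 4 conventional mice for 7 members on water (8.48% of all genes), 5 after the short-chain fructan (12%) and 11 after the long-chain fructan (7.01%). None of the counts after the short-chain fructan stood clear of its background share.

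The changes were small and ran mostly one way. The median log2 change of the members was 0.23 on water, 0.13 after the short-chain and 0.28 after the long-chain fructan, where the medians of all genes were 0.01, 0.03 and 0.03. 34, 33 and 37 of the 38 members had a positive change. 30 members were positive in all 3 comparisons, a share of 78.9% against 33.2% of all genes. 13 members were called higher in at least 1 comparison (34.2%, against 6.53% of all genes), and Aurka, Bub1, Ccna2, Cdk1, Ect2 and Pcna in 2 (15.8%, against 2.61% in at least 2). None was called in all 3 (1.35% of all genes). The short-chain comparison called only Pcna and Ect2, whose changes on water were below 1.3-fold.

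The 3 differences were also averaged, an average added after they had been seen. 4 members were called higher in it, namely Bub1, Ect2, Ccna2 and Plk1 (2.99% of all genes), and 0 lower (5.22%). At an adjusted p below 0.05, 25 of the 38 members were higher in germ-free mice (18.6% of all genes), and the median change over all 38 was 0.23, against 0.03 over all genes. For Pcna and Ect2 all 12 germ-free mice lay above all 12 conventional mice (1.31% of all genes). E2f1 was the member with a negative average change (-0.04). The call of Plk1 in the average was lost in 15 of 31 alternative settings.

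**Figure D2:**
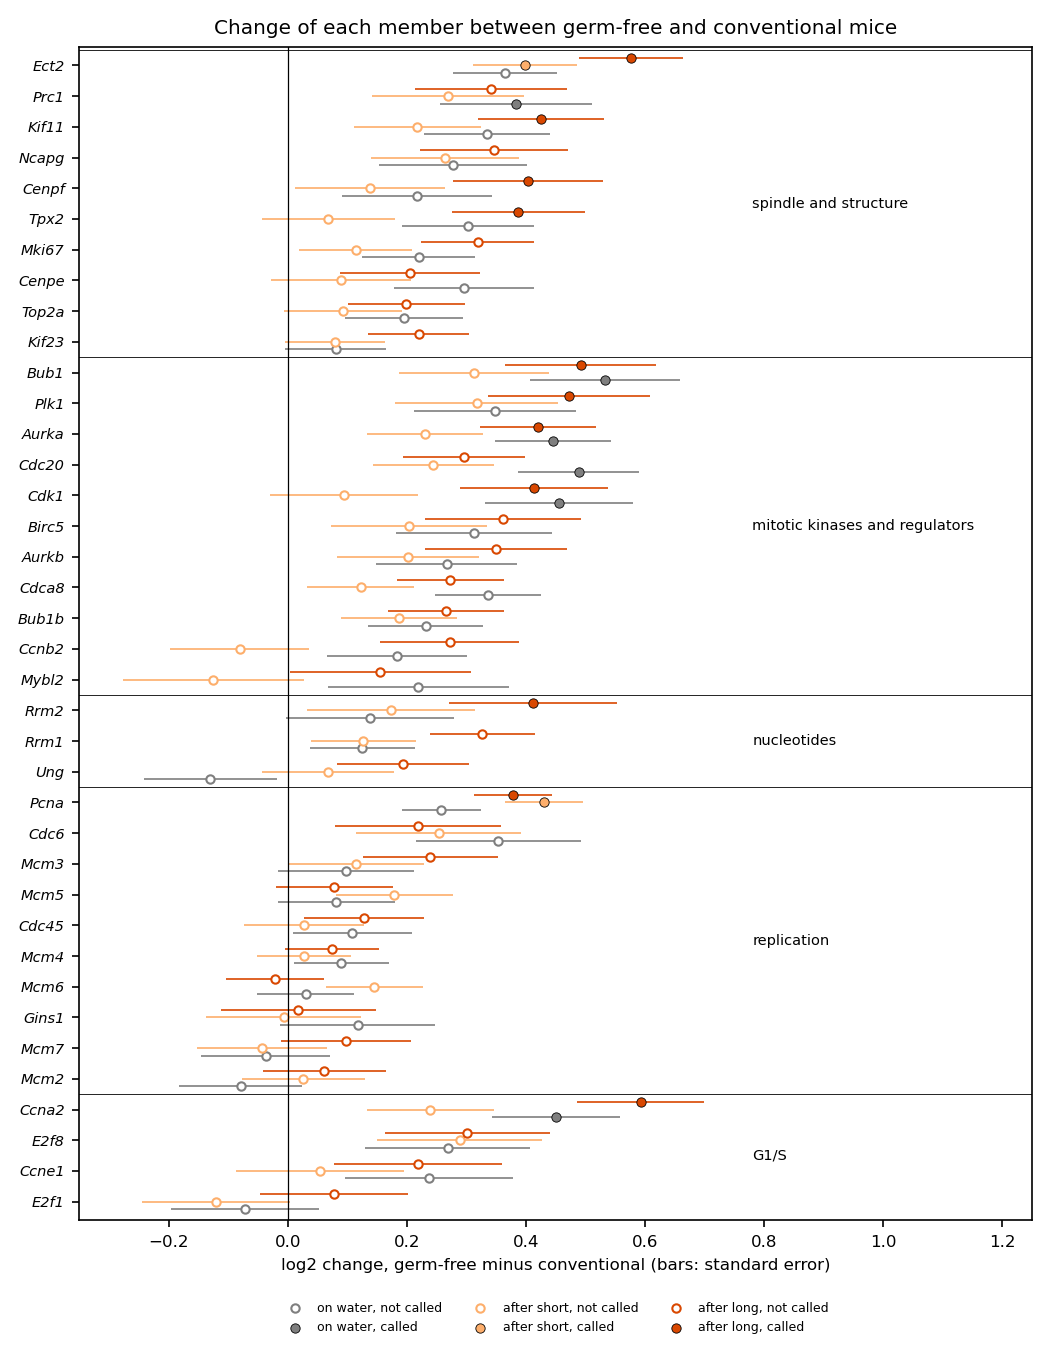
Log2 change between germ-free and conventional mice (horizontal axis) of the 38 members, grouped by role, on water, after the short-chain and after the long-chain fructan, with bars for the standard error and filled points for members called. Mitotic and spindle genes lie right of 0 except Ccnb2 and Mybl2 after the short-chain fructan, most MCM genes lie close to 0, and the change of Ccna2 after the long-chain fructan reaches 0.59.

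The mitotic kinases, cyclins and checkpoint genes held the largest number of calls on water. All 11 had a positive change there, with a median of 0.34, and 4 were called. Bub1, the kinase that senses unattached kinetochores, had values of 5.93, 5.72, 5.90 and 5.86 in conventional and 6.61, 6.17, 6.38 and 6.38 in germ-free mice on water. Long-chain values of Bub1 were 6.11, 5.88, 6.48 and 6.09 in conventional and 6.58, 6.82, 6.25 and 6.87 in germ-free mice. On water every germ-free mouse lay above every conventional mouse, whereas after the long-chain fructan the lowest germ-free mouse lay below the highest conventional mouse. Bub1 was 1.45-fold higher on water (log2 change 0.53 ± 0.13 SE, limma adjusted p = 0.00459) and 1.41-fold higher after the long-chain fructan (0.49 ± 0.13, adjusted p = 0.00775). Its short-chain values were 6.10, 6.07, 6.19 and 6.16 in conventional and 6.47, 6.40, 6.23 and 6.66 in germ-free mice. These did not overlap either, but the change of 0.31 was below 1.3-fold and its adjusted p was 0.0977.

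Cdc20, which activates the anaphase-promoting complex, read 6.24, 5.96, 5.81 and 6.13 in conventional and 6.50, 6.40, 6.79 and 6.41 in germ-free mice on water. The groups did not overlap, and Cdc20 was 1.40-fold higher in germ-free mice (log2 change 0.49 ± 0.10, adjusted p = 0.0014). Its long-chain values were 6.12, 6.16, 6.37 and 6.38 against 6.54, 6.65, 6.63 and 6.40, again without overlap but with a change of 0.30, below the fold threshold. Aurka, the kinase of centrosome maturation, had values of 6.24, 6.47, 6.51 and 6.47 against 6.99, 6.79, 6.87 and 6.82 on water. It was 1.36-fold higher there (adjusted p = 0.00232), with the lowest conventional value in replicate 1. Given the long-chain fructan, Aurka read 6.33, 6.19, 6.75 and 6.34 in conventional and 6.87, 6.88, 6.73 and 6.80 in germ-free mice, a 1.34-fold difference (adjusted p = 0.00355) in which 1 conventional mouse, replicate 3, reached the germ-free range. Its short-chain values were 6.68, 6.36, 6.36 and 6.62 against 6.78, 6.68, 6.72 and 6.76, and the change of 0.23 was not called.

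Cdk1, the kinase whose activity with cyclin B starts mitosis, had values of 6.12, 5.95, 5.87 and 6.30 in conventional and 6.47, 6.28, 6.81 and 6.49 in germ-free mice on water. The highest conventional mouse lay just above the lowest germ-free mouse, and the change of 0.46 ± 0.12 was called (adjusted p = 0.0134). Its long-chain values were 6.17, 5.93, 6.23 and 6.36 against 6.55, 6.67, 6.58 and 6.55, without overlap (0.41 ± 0.12, adjusted p = 0.0227). The short-chain values of Cdk1, 6.29, 6.56, 6.11 and 6.24 against 6.25, 6.75, 6.31 and 6.28, overlapped, with replicate 2 of the germ-free group at 6.75 apart from the other 3, and the change was 0.09. Plk1, which acts from mitotic entry to cytokinesis, had values of 7.66, 7.17, 8.11 and 7.86 against 8.22, 8.20, 7.92 and 8.35 after the long-chain fructan. It was called there (1.39-fold, adjusted p = 0.0177) and not on water, where its change was 0.35 and its values 7.71, 7.56, 7.69 and 7.82 against 8.30, 7.66, 8.13 and 8.09. Replicate 2 of the germ-free water group lay within the conventional range for Plk1.

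Ccnb2, encoding a B-type cyclin, was not called in any comparison. Its values on water were 8.61, 8.45, 8.59 and 8.58 in conventional and 8.84, 8.29, 8.99 and 8.85 in germ-free mice, with replicate 2 of the germ-free group below all conventional mice. Mybl2, a transcription factor that acts at mitotic genes, had the widest spread between mice of all members (pooled SD 0.24). It read 5.90, 6.08, 5.67 and 6.20 in conventional and 6.39, 5.79, 6.41 and 6.13 in germ-free mice on water, and its change of 0.22 lay within that spread. Of the other members of this role, Birc5, Aurkb and Cdca8, partners in the chromosomal passenger complex, had changes of 0.31, 0.27 and 0.34 on water and 0.36, 0.35 and 0.27 after the long-chain fructan. Of these 3, Cdca8 on water (adjusted p = 0.0111) and Cdca8 and Aurkb after the long-chain fructan (adjusted p = 0.0369 and 0.0454) passed the adjusted threshold but not the 1.3-fold limit.

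**Figure D3:**
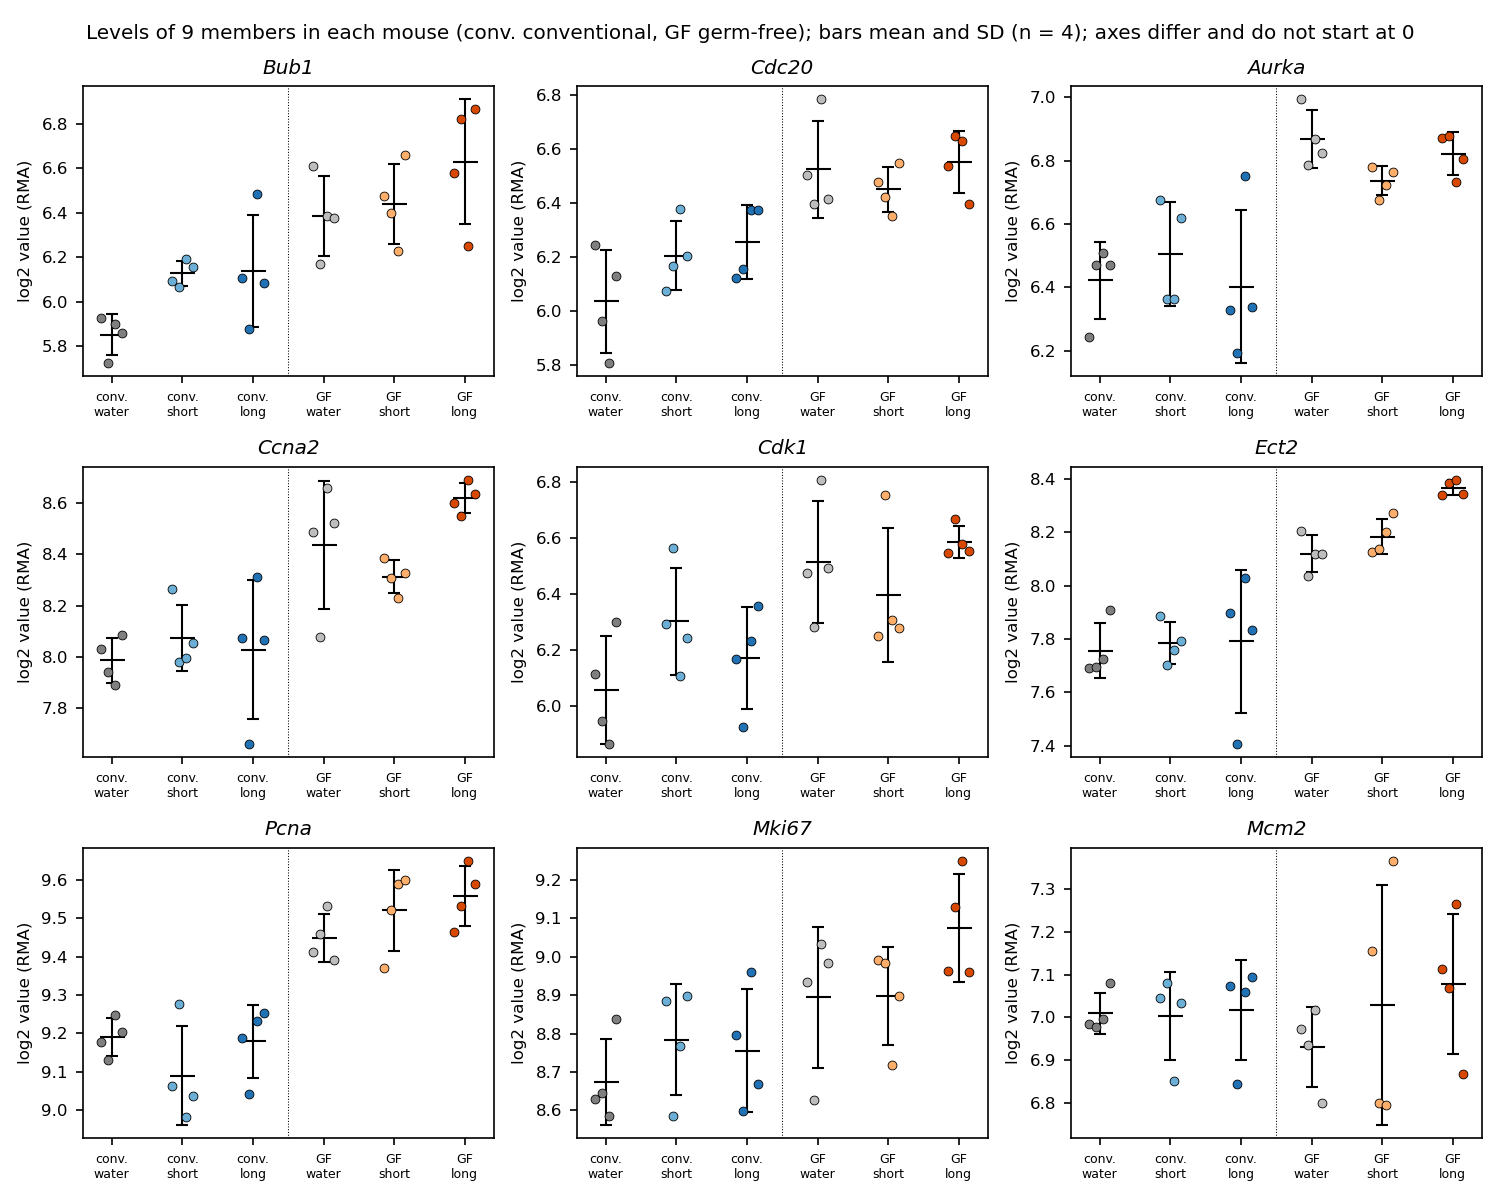
Log2 values (vertical axes, which differ between panels and do not start at 0) of 9 members in each mouse of the 6 groups, with bars for the mean and SD (n = 4). Pcna and Ect2 show no overlap between the 12 conventional and the 12 germ-free mice, while the groups of Mcm2 overlap throughout.

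Genes of the spindle and of cytokinesis were positive in all 10 cases in each of the 3 comparisons, with medians of 0.29, 0.13 and 0.34. Ect2, which activates RhoA at the cleavage furrow, read 7.69, 7.70, 7.73 and 7.91 in conventional and 8.20, 8.04, 8.12 and 8.12 in germ-free mice on water. Its values were 7.89, 7.70, 7.76 and 7.79 against 8.13, 8.14, 8.20 and 8.27 after the short-chain fructan, and after the long-chain fructan 7.90, 7.41, 8.03 and 7.83 against 8.34, 8.39, 8.40 and 8.35. The lowest of all germ-free mice stood at 8.04 and the highest of all conventional mice at 8.03. Ect2 was 1.32-fold higher after the short-chain (log2 change 0.40 ± 0.09, adjusted p = 0.00209) and 1.49-fold higher after the long-chain fructan (0.58 ± 0.09, adjusted p = 3.56e-05). On water its change of 0.36 (adjusted p = 0.00505) stayed below 1.3-fold. In the conventional long-chain group replicate 2 read 7.41, far below the other 3 mice.

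Prc1, which bundles the microtubules of the central spindle, was called on water alone, with values of 6.19, 6.04, 6.21 and 6.28 in conventional and 6.76, 6.18, 6.81 and 6.50 in germ-free mice (log2 change 0.38 ± 0.13, adjusted p = 0.0451). 1 germ-free mouse, replicate 2, lay inside the conventional range, and the call was lost in 5 of 16 alternative settings. The long-chain groups of Prc1 did not overlap (6.34, 5.92, 6.39 and 6.23 against 6.68, 6.63, 6.53 and 6.40), at a change of 0.34 that was not called. Kif11, the motor that separates the spindle poles, read 7.36, 7.07, 7.51 and 7.17 in conventional and 7.52, 7.86, 7.79 and 7.65 in germ-free mice after the long-chain fructan. The groups did not overlap, and the change was 0.43 ± 0.11 (adjusted p = 0.00617). Cenpf, a kinetochore protein, had values of 6.54, 5.89, 6.66 and 6.46 against 6.71, 6.83, 6.89 and 6.73 in the same comparison, and the change was 0.40 ± 0.13 (adjusted p = 0.0285), with replicate 2 of the conventional group at 5.89 below the other 7 mice. Tpx2, which activates Aurka on the spindle, had values of 6.82, 6.43, 7.02 and 6.71 against 7.09, 7.18, 7.17 and 7.10, without overlap (0.39 ± 0.11, adjusted p = 0.0175). The calls of Tpx2, Cenpf and Kif11 were lost in 5, 4 and 3 of 16 alternative settings.

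Mki67, the gene of the proliferation marker Ki-67, was not called in any comparison. Its values on water were 8.63, 8.64, 8.58 and 8.84 in conventional and 8.93, 8.63, 9.03 and 8.98 in germ-free mice, and the change was 0.22 (95% interval 0.03 to 0.42). Its long-chain values were 8.80, 8.60, 8.96 and 8.67 against 8.96, 9.13, 9.25 and 8.96, a change of 0.32 with an adjusted p of 0.0213 but below 1.3-fold. Top2a, the topoisomerase that untangles sister chromatids, had log2 changes of 0.19, 0.09 and 0.20 on water, after the short-chain and after the long-chain fructan.

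The replication genes had smaller median changes, a difference between roles that was not tested. On water the median of the 10 was 0.09 and 0 were called, and after the short-chain and long-chain fructan the medians were 0.07 and 0.09 with 1 called each. That member was Pcna, the sliding clamp of the DNA polymerases. Pcna read 9.18, 9.13, 9.25 and 9.20 in conventional and 9.41, 9.46, 9.53 and 9.39 in germ-free mice on water, 9.06, 9.28, 8.98 and 9.04 against 9.37, 9.52, 9.59 and 9.60 after the short-chain fructan, and 9.19, 9.04, 9.23 and 9.25 against 9.46, 9.53, 9.65 and 9.59 after the long-chain fructan. The 12 germ-free mice all lay above the 12 conventional mice, whose highest value was 9.28. The log2 change was 0.43 ± 0.07 after the short-chain (adjusted p = 4.19e-05) and 0.38 ± 0.07 after the long-chain fructan (adjusted p = 0.000205), and on water 0.26 ± 0.07 (adjusted p = 0.0085), where it was not called. In the long-chain comparison the call of Pcna was lost in 6 of 16 alternative settings. Pcna also had the smallest spread between mice of all members (pooled SD 0.09).

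The 6 MCM genes, which encode the replicative helicase, had changes on water from -0.08 for Mcm2 to 0.10 for Mcm3. Their 95% intervals give the size that these data allow, and for Mcm2 on water it ran from -0.29 to 0.13. Mcm6 read 7.11, 7.13, 7.21 and 7.22 in conventional and 7.16, 7.22, 7.28 and 7.13 in germ-free mice on water, with overlap and a change of 0.03. Mcm4 read 6.69, 6.76, 6.74 and 6.78 against 6.79, 6.80, 6.97 and 6.76, and its change was 0.09. Cdc6, which loads the helicase onto origins, was the replication gene with the widest spread, at a pooled SD of 0.21. Its values on water were 4.99, 5.10, 5.29 and 4.83 in conventional and 5.32, 5.35, 5.47 and 5.50 in germ-free mice, which did not overlap, and its change of 0.35 had an adjusted p of 0.095. Gins1, a subunit of the helicase complex at the fork, read 5.03, 5.21, 5.66 and 5.36 against 5.37, 5.33, 5.72 and 5.31 with overlap.

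Among the G1/S genes, Ccna2, encoding cyclin A, had the largest changes on water and after the long-chain fructan. After the short-chain fructan the change of E2f8 was larger. Ccna2 read 8.03, 7.94, 7.89 and 8.08 in conventional and 8.49, 8.08, 8.66 and 8.52 in germ-free mice on water. Its short-chain values were 8.26, 7.98, 8.00 and 8.05 against 8.39, 8.31, 8.23 and 8.33. Its long-chain values were 8.07, 7.66, 8.31 and 8.06 against 8.60, 8.55, 8.69 and 8.64. Only the long-chain groups of Ccna2 did not overlap, and replicate 2 of the germ-free water group stood within the conventional range. Ccna2 was 1.37-fold higher on water (log2 change 0.45 ± 0.11, adjusted p = 0.00487) and 1.51-fold higher after the long-chain fructan (0.59 ± 0.11, adjusted p = 0.00031). E2f8, a repressor among the E2F factors, had the widest spread of the 4 (pooled SD 0.22), with 6.82, 7.23, 7.07 and 7.21 in conventional and 7.56, 6.95, 7.40 and 7.50 in germ-free mice on water. It was not called, at changes of 0.27, 0.29 and 0.30. E2f1, an activating E2F factor, had changes of -0.07, -0.12 and 0.08.

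Rrm1 and Rrm2 encode the subunits of ribonucleotide reductase, which makes the building blocks of DNA. Rrm2 was called after the long-chain fructan, with values of 6.56, 6.12, 6.53 and 6.63 in conventional and 6.59, 6.90, 7.17 and 6.83 in germ-free mice and a change of 0.41 ± 0.14 (adjusted p = 0.0468). 1 germ-free mouse, replicate 1, fell within the conventional range, and the call was lost in 7 of 16 alternative settings. Rrm1 read 7.39, 7.27, 7.58 and 7.38 against 7.53, 7.86, 7.70 and 7.83 in that comparison, and its change of 0.33 (adjusted p = 0.0114) was below 1.3-fold. Ung, the uracil glycosylase that removes uracil from DNA, was the member with the lowest change on water (-0.13, 95% interval -0.36 to 0.10).

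The counts depended on single mice. On water, 12 members were called without replicate 2 of the germ-free group and 3 without replicate 3 of that group. Replicate 2 also stood apart in marker lists, with averages of -0.86 for smooth muscle (the other 3 mice -0.40 to 0.04), -0.65 for Paneth cells (-0.24 to -0.20), -0.25 for stem cells (-0.07 to -0.06) and -0.10 for plasma cells (-0.58 to -0.49), and their part in the count was not tested. In the long-chain comparison, 19 were called without replicate 3 of the conventional group, 3 without replicate 2 of the conventional group, the mouse with the lowest average, and 7 without replicate 3 of the germ-free group. In the short-chain comparison, 1 was called without replicate 2 of the conventional or without replicate 4 of the germ-free group, and 0 after cyclic loess normalization. Without any one mouse in turn, the median change of the members ran from 0.20 to 0.31 on water, from 0.10 to 0.16 after the short-chain and from 0.24 to 0.36 after the long-chain fructan.

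Within each colonization status, no member was called between fructan groups. In conventional mice the short-chain fructan against water called 0 members (0.409% of all genes were called either way), the long-chain fructan against water 0 (0.313%) and the long-chain against the short-chain fructan 0 (0.213%). In germ-free mice the same comparisons called 0 (0.579%), 0 (0.855%) and 0 (1.41%). The numbers of members with an unadjusted limma p below 0.05 were 2, 3 and 1 in conventional mice and 0, 1 and 5 in germ-free mice. The shares of all genes below that p were 5.22%, 5.67% and 3.63% in conventional and 5.71%, 8.74% and 12.7% in germ-free mice, so that no count of members stood clear of its background. The median changes were 0.04, 0.04 and 0.00 in conventional mice, where 24, 25 and 20 of the 38 members were positive. In germ-free mice the medians were -0.05, 0.08 and 0.14, with 11, 33 and 36 positive. When each mouse was left out in turn, the 3 medians in conventional mice ran from 0.00 to 0.08, from -0.03 to 0.12 and from -0.07 to 0.08, and so had no settled sign. In germ-free mice that of the short-chain fructan against water ran from -0.09 to 0.01, while the other medians stayed positive (0.04 to 0.15 and 0.11 to 0.17). The 95% intervals of single members had bounds between -0.49 (Ung and Gins1) and 0.56 (Rrm2), which is how large a change these groups of 4 allow.

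**Figure D4:**
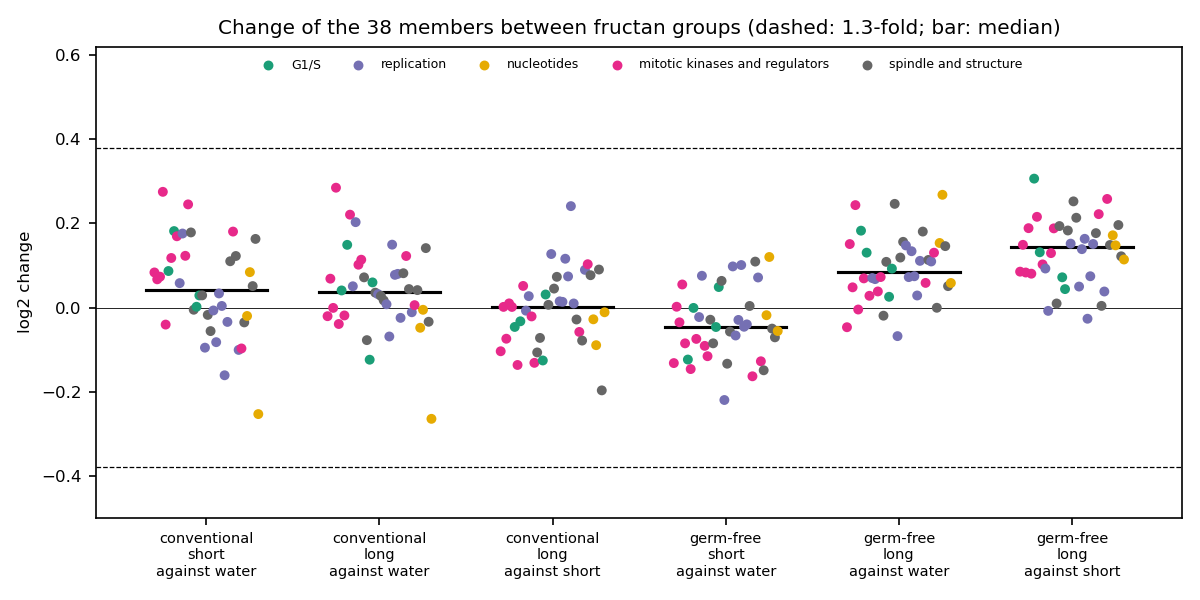
Log2 change (vertical axis) of the 38 members in the 6 comparisons between fructan groups, with 1 point per member coloured by role, a bar for the median and dashed lines at 1.3-fold. No point reaches the dashed lines, and the medians run from -0.05 to 0.14.

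In conventional mice Ung had the smallest p of the members against water. It read 5.40, 5.19, 5.25 and 5.31 on water, 4.78, 5.30, 4.98 and 5.07 after the short-chain and 4.98, 4.91, 5.13 and 5.07 after the long-chain fructan. All 4 long-chain mice lay below the 4 water mice, and the changes were -0.25 (limma adjusted p = 0.951, exact permutation p = 0.0857) and -0.26 (adjusted p = 0.871, exact permutation p = 0.0286, the smallest that 4 against 4 mice can give). Bub1, whose values are given above, had changes of 0.28 and 0.29 (adjusted p = 0.951 and 0.871), with all 4 short-chain mice above the 4 water mice. Cdk1 was next after the short-chain (0.25) and Cdc20 after the long-chain fructan (0.22). Between the long-chain and the short-chain fructan Mcm6 had the smallest p (limma p = 0.00653, exact permutation p = 0.0857), with 6.89, 7.21, 6.87 and 7.05 after the short-chain and 7.32, 7.12, 7.39 and 7.15 after the long-chain fructan, where the groups overlapped and the change of 0.24 was below 1.3-fold. Tpx2 and Mcm4 followed with -0.20 and 0.12. Mcm4 read 6.76, 6.90, 6.67 and 6.76 against 6.96, 6.72, 6.99 and 6.89.

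In germ-free mice the short-chain fructan gave no member with a p below 0.05 against water. Gins1 came first, with 5.37, 5.33, 5.72 and 5.31 on water and 5.13, 5.22, 5.03 and 5.47 after the short-chain fructan, a change of -0.22 with overlap (adjusted p = 0.907). Aurka (-0.13), all of whose short-chain values lay below the water values, and Kif11 (-0.13) followed. All 4 mice given the long-chain fructan lay above the 4 water mice for Ect2, at a difference of 0.25 (limma adjusted p = 0.408, exact permutation p = 0.0286) that was below 1.3-fold. Bub1 and Mki67 were next with 0.24 and 0.18.

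The long-chain against the short-chain fructan in germ-free mice was the fructan comparison with the most one-sided set of changes. 36 of 38 members were positive, against 46.6% of all genes, and for 5 of them all 4 long-chain mice lay above the 4 short-chain mice (2.16% of all genes). Ccna2 read 8.39, 8.31, 8.23 and 8.33 after the short-chain and 8.60, 8.55, 8.69 and 8.64 after the long-chain fructan. These values did not overlap, and the change of 0.31 ± 0.11 had a limma adjusted p of 0.269 and an exact permutation p of 0.0286. Kif23, a kinesin of the central spindle, read 7.70, 7.68, 7.63 and 7.85 against 7.94, 7.97, 7.84 and 7.96, with a change of 0.21 and slight overlap. Kif11 had a change of 0.25 without overlap, from 7.46, 7.50, 7.45 and 7.40 to 7.52, 7.86, 7.79 and 7.65. None of the 3 passed the adjusted threshold. In this comparison, 0 of 16 markers of villus enterocytes had a positive change (median -0.14, 0 called), while 9 of 11 markers of B cells and germinal centres did (median 0.37), and Pax5, Ms4a1 and Cr2 were called higher. The mean of the B cell list ran from -0.37 to -0.09 over the short-chain mice and from -0.18 to 0.51 over the long-chain mice. Other lists differed as well, with short-chain and long-chain group means of -0.48 and -0.63 for plasma cells. Those of macrophages and dendritic cells were -0.12 and -0.28, and those of Paneth cells, nearly equal, -0.24 and -0.25. The part of these lists in the change of the members was not tested.

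Whether colonization altered the effect of a fructan was tested through interaction terms. 0 members were called for the short-chain fructan (0.707% of all genes were called either way) and 0 for the long-chain fructan (0.531%). The smallest p for the short-chain fructan was that of Cdk1, whose change in germ-free minus that in conventional mice was -0.36 (limma adjusted p = 0.9). Pcna (0.17) and Cdc20 (-0.24) followed. 1 member was called, and lower, when replicate 2 of the germ-free short-chain group or replicate 2 of the germ-free water group was left out. For the long-chain fructan Ung came first with 0.32, followed by Ect2 (0.21) and Rrm1 (0.20). Rrm1 read 7.68, 7.50, 7.71 and 7.41 on water and 7.53, 7.86, 7.70 and 7.83 after the long-chain fructan in germ-free mice, and 7.20, 7.48, 7.57 and 7.55 against 7.39, 7.27, 7.58 and 7.38 in conventional mice.

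The members varied together from mouse to mouse inside the groups. After group means were removed, the median correlation over the 703 pairs of members across the 24 mice was r = 0.36, and 648 pairs were positive. Pairs within the spindle group had a median of 0.63, those within the replication group 0.45 and those within the mitotic kinase group 0.32. Ccna2 (median r with the other members 0.55), Kif11 (0.53) and Aurka (0.50) followed the rest most closely, and Ung (0.07), Cdca8 (0.12) and Ccne1 (0.14) least. Values of 1 array share its RNA, labelling and normalization, and these correlations are a description only.

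Promoter sequences are shown because the roles of the members are known to be read from different elements, E2F sites at S phase genes and the CHR element with CCAAT boxes at mitotic genes. Sequences of 33 of the 38 members were held in the RefSeq table (GRCm38.p6). In each line the 250 bases before the transcription start are written 5′ to 3′ on the strand of the gene, which is the minus strand in all 6, and capitals mark matches to the motifs searched. First come the pairs of replication and mitotic genes with the strongest statistics after the long-chain fructan that held a motif. They are Pcna (chr2:132253181-132253430), Mcm3 (chr1:20820313-20820562), Ect2 (chr3:27153879-27154128, the first of 2 starts listed) and Aurka (chr2:172370571-172370820). Mcm3 was itself not called between germ-free and conventional mice. The printed bases of Ect2 and Aurka lie inside the annotated spans of their genes, which reach to 27154253 and 172370886. Cdk1 (chr10:69352913-69353162), the member with all 3 kinds of motif, and Mcm6 (chr1:128359706-128359955), the member with the most E2F sites, were added after the matches had been seen.
Pcna: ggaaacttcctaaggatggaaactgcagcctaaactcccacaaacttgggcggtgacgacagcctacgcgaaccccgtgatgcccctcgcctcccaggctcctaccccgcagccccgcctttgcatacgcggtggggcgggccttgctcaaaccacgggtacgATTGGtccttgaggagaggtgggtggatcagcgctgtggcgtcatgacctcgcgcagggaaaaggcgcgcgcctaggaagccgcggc
Mcm3: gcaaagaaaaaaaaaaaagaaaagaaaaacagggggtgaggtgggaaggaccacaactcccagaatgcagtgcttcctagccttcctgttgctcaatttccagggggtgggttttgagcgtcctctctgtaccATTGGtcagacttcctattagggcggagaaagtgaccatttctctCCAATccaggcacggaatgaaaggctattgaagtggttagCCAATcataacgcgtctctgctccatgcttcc
Ect2: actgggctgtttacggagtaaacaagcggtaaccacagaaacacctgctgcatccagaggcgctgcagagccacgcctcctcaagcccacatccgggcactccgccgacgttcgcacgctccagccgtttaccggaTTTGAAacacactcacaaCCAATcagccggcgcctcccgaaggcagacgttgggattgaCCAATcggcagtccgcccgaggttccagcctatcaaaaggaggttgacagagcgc
Aurka: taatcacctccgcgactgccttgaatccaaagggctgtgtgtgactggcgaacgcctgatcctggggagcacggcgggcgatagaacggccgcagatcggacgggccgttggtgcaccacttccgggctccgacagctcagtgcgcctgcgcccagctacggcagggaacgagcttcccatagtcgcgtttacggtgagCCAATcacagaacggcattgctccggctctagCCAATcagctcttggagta
Cdk1: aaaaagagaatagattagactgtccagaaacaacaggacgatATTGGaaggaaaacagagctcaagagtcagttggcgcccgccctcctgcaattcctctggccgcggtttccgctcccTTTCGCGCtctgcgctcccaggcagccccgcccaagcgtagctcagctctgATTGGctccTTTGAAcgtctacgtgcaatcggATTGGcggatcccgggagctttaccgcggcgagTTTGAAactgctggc
Mcm6: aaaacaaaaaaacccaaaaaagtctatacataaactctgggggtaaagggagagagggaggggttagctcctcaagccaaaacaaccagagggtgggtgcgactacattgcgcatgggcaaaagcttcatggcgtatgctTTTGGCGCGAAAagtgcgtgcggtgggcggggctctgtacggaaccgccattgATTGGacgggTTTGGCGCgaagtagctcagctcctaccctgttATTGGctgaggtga

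The motifs searched on both strands were the E2F sites TTTCGCGC, TTTGGCGC and GGCGGGAA, the CHR element, spelled TTTGAA, and the CCAAT box, spelled by its name. A CCAAT box stood in the upstream sequence of 27 of the 33 members (81.8%), against 34.5% of the 27025 genes in the table. The CHR element stood in 11 (33.3%, against 16.3%) and an E2F site in 4 (12.1%, against 2.52%). All 9 spindle genes with a sequence held a CCAAT box. So did 8 of 10 mitotic kinases and regulators and 7 of 8 replication genes. Of the same spindle genes, mitotic kinases and regulators, and replication genes, 5, 3 and 2 held the CHR element. An E2F site stood in 0, 1 and 2 of them. In Mcm6, 2 of the 3 E2F matches overlap. With the 300 bases of the table, which run past the start, the CHR element stood in 18 members (54.5%, against 18.1%). These included 8 of 9 spindle genes, 7 of 10 mitotic kinases and regulators and 2 of 8 replication genes. E2F sites in that window stood in 6 members (18.2%, against 3.03%), 4 of 8 replication genes among them. A match is a description of the letters and shows no binding.

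Further cell cycle genes, taken from lists drawn up by role, were counted beside the members. Of 43 other mitotic genes, 41, 42 and 42 were positive on water, after the short-chain and after the long-chain fructan, with medians of 0.21, 0.18 and 0.33 and with 4, 3 and 14 called higher and 0 lower. On water these were Pbk (0.52), Nek2 (0.48), Hmmr (0.40) and Cenpa (0.39), the last of them the centromeric histone. In the long-chain comparison Cep55 (0.54, limma adjusted p = 0.00249), which acts in abscission, and Melk (0.48) and Nuf2 (0.47) had the largest changes of those called. Of 26 other S phase genes, 16, 19 and 21 were positive, with medians of 0.05, 0.07 and 0.11, and 0 were called in any of the 3.

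Not every gene of the cycle was higher in germ-free mice. Ccnd1, encoding the cyclin D1 that responds to growth signals, was lower by log2 changes of -0.34 on water (limma adjusted p = 0.0143), -0.56 after the short-chain and -0.54 after the long-chain fructan, and was called lower in the last 2. Single mice ranged from 8.47 to 9.07 in the conventional and from 8.12 to 8.48 in the germ-free groups for Ccnd1. Ccnd2, encoding cyclin D2, had changes of 0.21, 0.30 and 0.29, none called. Among 12 inhibitors of the cycle none was called in these comparisons, and Cdkn1b, encoding p27, had changes of -0.35 on water (adjusted p = 0.0018) and -0.28 after the long-chain fructan. Between conventional mice given the long-chain fructan and water, Myc was called higher (0.38), with a limma adjusted p of 0.84.

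Markers of other cells also differed between germ-free and conventional mice. Of 15 markers of crypt base stem cells and Wnt targets, 13, 9 and 13 were negative in the 3 comparisons, with medians of -0.18, -0.06 and -0.17. Lgr5, the stem cell receptor, was called lower on water (-0.53) and after the short-chain fructan (-0.44), with group means from 7.47 to 7.59 in conventional and from 7.04 to 7.12 in germ-free mice. All 6 Paneth cell markers were negative in each comparison, with medians of -0.55, -0.68 and -0.47 and 4 called lower in each. The stem cell list had averages per mouse from 0.00 to 0.14 in the conventional and from -0.25 to 0.02 in the germ-free groups, a direction opposite to that of the members. After group means were removed, its average and that of the members had r = 0.53 across the 24 mice, the Paneth list 0.52, the B cell list 0.14 and the plasma cell list -0.53, as a description only.

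Among immune markers, 5, 4 and 6 of the 7 T cell genes were called lower in germ-free mice in the 3 comparisons (medians -0.59, -0.54 and -0.53), and 4 of the 6 plasma cell genes in each. Of 9 macrophage and dendritic cell markers, 4, 4 and 7 were called lower, and of 7 smooth muscle markers 6, 3 and 4. Goblet cell markers had 0 calls of 6, fibroblast markers 0, 0 and 1 of 6 lower, and erythroid markers 0, 1 and 1 of 2 higher. Markers of B cells and germinal centres were negative in 11 of 11 cases on water and after the short-chain fructan (medians -0.16 and -0.18) and in 5 of 11 after the long-chain fructan (median 0.09). Of 6 adipocyte markers 3, 4 and 4 were called higher (medians 0.93, 1.89 and 1.26), and of 16 villus enterocyte markers 5, 6 and 1 (medians 0.14, 0.19 and 0.00). The part of these shifts in the change of the members was not tested. Housekeeping genes had medians of 0.09, 0.09 and 0.04, with 0 of 9 called and 3, 2 and 2 of them higher at an adjusted p below 0.05.

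**Figure D5:**
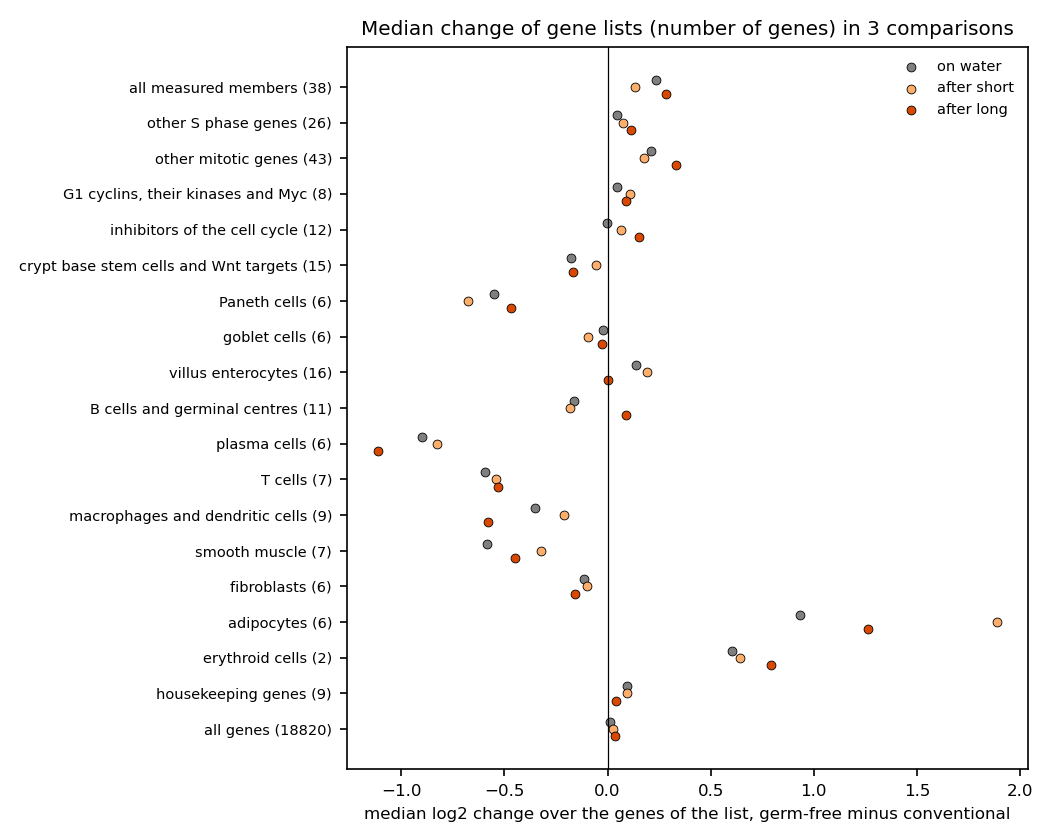
Median log2 change between germ-free and conventional mice (horizontal axis) over the genes of the members, of other cell cycle lists, of lists of cell type markers, of housekeeping genes and of all 18820 genes, on water, after the short-chain and after the long-chain fructan. The members and the other mitotic genes lie between 0.13 and 0.33, stem cell, Paneth, T cell, plasma cell and muscle markers lie below 0, and adipocyte markers reach 1.89.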

How the data were processed

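Total RNA of the terminal ileum of 24 mice was hybridised to Affymetrix Mouse Gene 1.1 ST arrays. The authors deposited log2 values made with RMA (background correction, quantile normalization and summary per probe set), named in the submitters' processing notes and the methods. The methods name a remapped probe set definition, whereas the rows carry the numbers of the array maker's probe sets. Scan or plate batches are not given in the sources used here. Probe intensities were not analysed here, so no floor of detection is given, and the number of arrays limits the precision.

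Of 35556 probe sets, 21218 carried 1 gene symbol, 1881 several and 12457 none in the platform annotation. The brightest set of each gene was kept (18820 genes). Groups were taken from the sample labels. A linear model with 6 group means was fitted to all genes over 24 arrays (limma 3.58.1, R 4.3.3, empirical Bayes with an intensity trend), and Benjamini-Hochberg adjustment ran over all genes. Calls used the thresholds of the study, an unadjusted p below 0.01 and a fold change over 1.3. Exact two-sided permutation tests of single members were computed as well, with 0.0286 the smallest p that 4 against 4 mice allow. The procedure was tested on simulated data. Members described mouse by mouse were those called in any comparison, the 3 with the smallest p in each, and per role those with the highest mean and the widest spread. Other lists are given by counts, by genes called and by those with the smallest p, and a few further genes were chosen after their values were seen. The members and lists were chosen with earlier results of these data known. Alternatives were cyclic loess, a single prior, intensity-based moderation, array weights, the mean of all sets of a gene, dim genes left out, fewer arrays in the fit, a replicate block, and each array left out in turn. RefSeq promoter sequences (GRCm38.p6) were searched for exact motif letters.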

Additional observations from a re-analysis of the deposited data

Results flagged for a closer look

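Within each group of 4 mice, a mouse was marked when its distance to the nearest other mouse took up most of the range of the group. 10 of 234 sets of 4 values, from the 38 members and their average in 6 groups, were marked (4.27%), and chance marks about 1 in 20. In the conventional water group, replicate 1 was low for Aurka (6.24, the others from 6.47 to 6.51) and high for Cdc45 (5.92, the others from 5.81 to 5.82). In the same group, replicate 4 was high for Ect2 (7.91, the others from 7.69 to 7.73) and for Mcm2 (7.08, the others from 6.979 to 6.995). In the conventional long-chain group, replicate 2 was low for Mcm2 (6.84, the others from 7.06 to 7.10), Mcm3 (6.11, the others from 6.60 to 6.70) and Mybl2 (5.86, the others from 6.14 to 6.18). In germ-free mice, replicate 3 of the short-chain group was low for Birc5 (6.04, the others from 6.29 to 6.31), replicate 2 of that group was high for Cdk1 (6.75, the others from 6.25 to 6.31), and replicate 3 of the water group was high for Gins1 (5.72, the others from 5.31 to 5.37). None of the 76 interaction terms of the members was called.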

How the results depend on the processing

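The median change of the members moved by less than the spread between mice in all 229 alternatives run, but between fructan groups 4 of the 6 medians reached or crossed 0 when single mice were left out, and 218 of 229 counts of called members stayed within 1.5 times. In the comparison on water, the count of 6 ran from 3 (without germ-free replicate 3) to 12 (without germ-free replicate 2). After the short-chain fructan, the count of 2 ran from 1 to 3 without single mice and was 0 with cyclic loess. After the long-chain fructan, the count of 11 was 7 with array weights and ran from 3 to 19 without single mice. For the short-chain interaction, the count of 0 was 0 to 1 without single mice. The cause was not tested. For single named members, called or not, 865 alternatives left the result as it was, and none turned the direction. These 865 include results that were not called and stayed so. A call was lost in 54 alternatives, all of them on results that had been called, and gained in 2. Plk1 in the average of the 3 gavages lost its call in 15 of 31 alternatives. Replicate numbers did not pair mice (same-numbered mice of different groups correlated with a median r of 0.01, from -0.14 to 0.18). With the replicate number as a block, 6, 2 and 10 members were called for germ-free mice against conventional ones (water, short-chain and long-chain fructan), and 0 in every fructan comparison. The share of member promoters with a CHR element rose from 33.3% to 54.5% when the 300 bases of the table were searched instead of 250. With 4 mice per group the median standard error of a member's change was 0.11 log2 units, which limits what the arrays can resolve.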

Other observations

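5 listed genes were read only by probe sets that also name another gene, and their values belong to both genes. The set of Nusap1 and Oip5 with the higher mean was higher in germ-free mice by log2 differences of 0.16 on water, 0.26 after the short-chain and 0.37 after the long-chain fructan. The set of Tex52 and Foxm1 differed by 0.08, 0.09 and 0.20. Of the pair of sets named for Cdc23 and Kif20a, the dimmer differed by 0.27, 0.13 and 0.30 and the brighter by 0.01, -0.04 and 0.14. The brighter set of Tyms and its pseudogene differed by 0.04, 0.20 and 0.19. The set of Ints8 and Ccne2 differed by -0.15, 0.00 and -0.42.

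4 members had more than 1 probe set of their own. The other set of Pcna gave nearly the same differences (0.25, 0.43 and 0.37) as the set used. The dimmer set of Kif11, at a mean of 3.97, gave 0.40, 0.39 and 0.19, and that of Prc1, at 2.85, gave 0.09, 0.13 and 0.03. Of the dimmer sets of Top2a, the one at a mean of 4.51 gave 0.17, 0.26 and 0.02. The one at 2.09 gave 0.15, 0.14 and 0.15.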
